A study of Mus musculus with 12 samples.

Results

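The DNA repair and damage checkpoint genes were taken as the genes on the array whose symbol begins with Fanc, Xrcc, Rad, Ercc, Msh or Mlh followed by the letter or number of a repair factor, together with Brca1, Brca2, Atm, Atr, Chek1 and Chek2. The rule uses gene names and no measured value, but it was set with earlier results of these data known. It gave 46 genes of the 18820 that have a probe set carrying 1 symbol. Probe sets matching the rule numbered 48, since Rad54l2 and Ercc6l2 have 2 each, of which the brighter was used. A further 10 probe sets hold one of these symbols beside that of another gene, among them those with Msh6, Ercc1, Ercc2 and Fanci, and were not used, since their signal cannot be given to 1 gene. Others of the 10 hold Fancl, Fancd2 or Atr, whose values here come from their probe sets with 1 symbol alone. Of the 46 genes, 38 reached a mean signal of 32 in at least 1 group, and 2 (Rad51b and Msh4) stayed below 16 in all 4 groups.

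Cells meet DNA damage with a set of repair pathways, each built for 1 kind of lesion, and with a checkpoint that holds the cell cycle while repair proceeds. Atm is the kinase switched on by double-strand breaks and Atr the kinase switched on by single-stranded DNA at stalled replication forks, and they act through Chek2 and Chek1. Homologous recombination and the Fanconi pathway act mainly in replicating cells, whereas end joining, single-strand break repair and nucleotide excision repair also serve cells that have left the cycle, as muscle fibres and most postnatal cardiomyocytes have. Tk2 encodes thymidine kinase 2, a mitochondrial enzyme that supplies dTTP and dCTP for the replication of mitochondrial DNA.

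RNA came from hind limb skeletal muscle and from heart of C57BL/6 mice 11 days old, either wild-type (Tk2+/+) or homozygous for a disrupted Tk2 gene in every tissue (Tk2-/-), with 3 arrays for each of the 4 groups and 3 different mice of a genotype according to the methods. Each array gave 1 linear intensity for a probe set, called signal here, and fold changes are differences of log2(signal + 16), which understates the change of dim genes. Tests are limma's, over all 18820 genes, with Benjamini-Hochberg adjustment and a threshold of 0.05, and the number of arrays limits their precision. Tk2 itself gave signals of 62.9, 68.5 and 63.1 in Tk2+/+ skeletal muscle, 64.7, 44.1 and 48.7 in Tk2-/- skeletal muscle, 70.2, 73.6 and 81.8 in Tk2+/+ heart and 30.1, 46.2 and 31.7 in Tk2-/- heart. It was lower in Tk2-/- heart, and in skeletal muscle 1 Tk2-/- array lay among the Tk2+/+ arrays. The position of its probes relative to the disruption is not described here, so its level does not check the labels.

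The 3 arrays of Tk2-/- heart were dimmer than all others, with a mean signal of 146.7 to 168.4 against 201.8 to 252.4 on the other 9, and the median gene had a fold change of -0.28 in heart but -0.02 in skeletal muscle. Counts of genes are therefore given with the deposited values and again after quantile normalization, as are the values of genes whose call depends on it, since this normalization gives the arrays of a tissue 1 distribution of signals and sets that median to 0.00. In a whole tissue, fewer cells of a type and less RNA per cell cannot be told apart. The markers of the labelled tissues were as labelled, since 6 measured cardiomyocyte genes summed to 24570 to 32010 in Tk2+/+ heart and 261.8 to 298.4 in Tk2+/+ skeletal muscle. The sum hides an uneven level of Myl7 and Nppa between the heart arrays. Myl7 gave 13.3, 580 and 2641 in Tk2+/+ and 1966, 144 and 1882 in Tk2-/- heart. Nppa gave 705, 2826 and 5742 in Tk2+/+ and 5422, 3543 and 5157 in Tk2-/- heart. Whether the heart samples differed in make-up, and its part in the values below, was not tested. Markers of proliferating cells, of which 9 of 10 were measured, summed to 794 to 1537 in Tk2+/+ and 135 to 348 in Tk2-/- skeletal muscle, and to 747 to 1755 in Tk2+/+ and 85.8 to 99.8 in Tk2-/- heart, where 8 of the 9, among them Mki67, Top2a and Cdk1, had a mean signal below 16. The sum of the fibroblast markers (7 of 7 measured) was lower too, at 7419 to 9080 in Tk2-/- against 13230 to 15100 in Tk2+/+ skeletal muscle and at 4988 to 5567 against 9692 to 12460 in heart. In skeletal muscle 5 of these 7 genes were lower, Pdgfra was higher (0.39, adjusted p = 0.017) and Dcn did not pass (0.23, adjusted p = 0.158). Markers of satellite cells and myoblasts (5 of 5 measured) summed to 649.8 to 1040 in Tk2+/+ and 301 to 574.6 in Tk2-/- skeletal muscle. Of these, 4 were lower, with fold changes of -1.66 for Myog, -1.17 for Myod1, -0.67 for Vcam1 and -0.43 for Pax7. Myf5 did not pass (0.17, adjusted p = 0.669). In heart the leucocyte markers (9 of 10 measured) summed to 1541 to 1919 in Tk2+/+ and 580.4 to 693.3 in Tk2-/- mice, and the endothelial markers (6 of 6 measured) to 6857 to 8056 and 3417 to 4407. These heart sums are of deposited values, on the dimmer Tk2-/- arrays.

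Sequences upstream of these genes are shown first, searched for spellings bound by E2F, the factor family that drives S-phase genes. Whether a match bears on the signal of a gene was not tested. A promoter window here is 300 bases, 250 before and 50 after a RefSeq transcript start, on build GRCm38.p6, and 38 of the 46 genes had one. The spellings searched were TTTCCCGC, TTTCGCGC, TTTGCCGC and TTTGGCGC, on both strands. A match stood in the windows of 7 of the 38 genes (18.4%), which were Brca2, Chek2, Fancg, Msh3, Msh5, Rad51c and Xrcc6. Over all 14749 genes of the array with a window the share was 3.55%, and over all 32851 windows of the table it was 2.26%. A match is a description of the letters, not of a bound site. The 5 genes below were picked because they were lower in Tk2-/- heart with both ways of scaling. Msh3 was lower there with the deposited values alone, and Msh5 with neither. Each stretch gives the match in capitals with 25 bases on either side, 5′ to 3′ on the strand of the gene.

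Brca2, chr5:150522428-150522485, plus strand: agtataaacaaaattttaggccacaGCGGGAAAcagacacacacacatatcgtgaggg
Chek2, chr5:110839806-110839863, plus strand: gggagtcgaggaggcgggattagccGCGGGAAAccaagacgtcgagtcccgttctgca
Fancg, chr4:43010321-43010378, minus strand: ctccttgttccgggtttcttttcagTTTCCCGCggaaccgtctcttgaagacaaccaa
Rad51c, chr11:87404927-87404984, minus strand: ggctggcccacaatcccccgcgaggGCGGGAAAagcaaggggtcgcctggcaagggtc
Xrcc6, chr15:82016298-82016355, plus strand: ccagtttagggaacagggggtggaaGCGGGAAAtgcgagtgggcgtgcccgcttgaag

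All 5 stretches hold the same spelling, TTTCCCGC, or its other strand GCGGGAAA. The first base of the match lay 168 bases before the start in Brca2, 152 in Chek2, 52 in Fancg, 46 in Xrcc6 and 5 in Rad51c, whose second window in the table held another match, TTTCGCGC, after its start. In Msh3 a pair of matches overlap, TTTGGCGC and the other strand of TTTCGCGC. Among the 15 genes with a window that were lower in heart with both scalings, 5 held a match (33.3%), among the 5 lower in skeletal muscle 2 did (Chek2 and Rad51c), and among the 4 higher in skeletal muscle 0 did. Of the other spellings searched, the cell-cycle element TTTGAA or TTCGAA stood in 10.5% of the 38 genes and 19% of the genes of the array. It stood in 0 of the 15 genes lower in heart, and in 0 of the 5 lower and 1 of the 4 higher in skeletal muscle. CCAAT, the letters bound by NF-Y, stood in 60.5% of the 38 genes and 41.9% of the genes of the array. Among the 15 lower in heart its share was 53.3%.

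The 250 bases before the start of Rad51ap1 and of Rad52 are set side by side, since these homologous recombination genes moved in opposite directions in skeletal muscle. Capitals mark ATTGG, the other strand of CCAAT. Rad51ap1 has 2 such matches, Rad52 has 0 in this stretch, and neither holds an E2F spelling. The pair does not stand for the other genes called in skeletal muscle with both scalings. Among those with a window, CCAAT stood in 4 of the 5 lower and in 3 of the 4 higher.

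Rad51ap1, chr6:126939588-126939837, minus strand: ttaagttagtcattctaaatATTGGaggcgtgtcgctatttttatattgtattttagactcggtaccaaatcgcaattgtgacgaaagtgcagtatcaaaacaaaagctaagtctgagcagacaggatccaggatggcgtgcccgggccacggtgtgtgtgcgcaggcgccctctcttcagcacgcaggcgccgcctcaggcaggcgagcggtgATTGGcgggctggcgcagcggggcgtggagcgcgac
Rad52, chr6:119902448-119902697, plus strand: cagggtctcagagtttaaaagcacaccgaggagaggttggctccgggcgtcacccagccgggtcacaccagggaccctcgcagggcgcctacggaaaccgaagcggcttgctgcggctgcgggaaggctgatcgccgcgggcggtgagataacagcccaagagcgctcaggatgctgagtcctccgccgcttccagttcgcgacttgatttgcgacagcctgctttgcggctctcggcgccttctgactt

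Over the 46 genes, the deposited values gave 4 that rose and 5 that fell in Tk2-/- skeletal muscle. The genes that rose were Ercc5, Rad23b, Rad52 and Xrcc1, and those that fell were Chek2, Mlh3, Rad51ap1, Rad51c and Xrcc5. Of all genes, 11.6% rose and 10.9% fell, so the share of repair genes past the threshold (8.7% and 10.9%) was near the background. After quantile normalization within the tissue all 9 calls held, and there were 5 higher, with Fancb added, and 9 lower, with Ercc6l, Ercc6l2, Rad54l and Xrcc4 added, against backgrounds of 13.8% and 14.8%. The median fold change of the 46 genes was -0.07 and that of all genes -0.02. The changes in skeletal muscle thus went both ways within the set, and within homologous recombination as well.

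**Figure D1:**
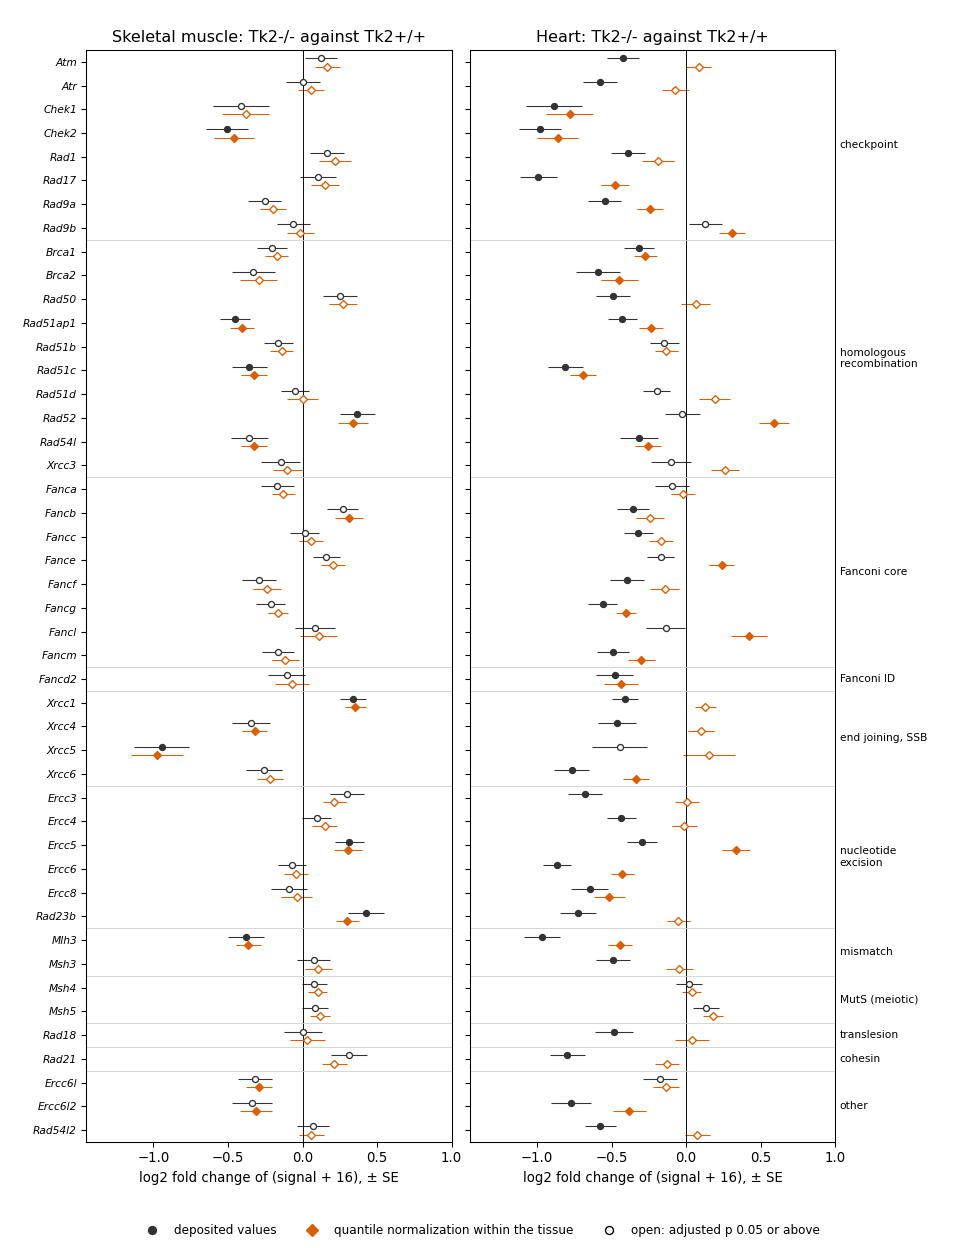
Log2 fold change of (signal + 16) in Tk2-/- against Tk2+/+ mice for each of the 46 genes, by pathway, in skeletal muscle (left) and heart (right), as the fitted value with its standard error (3 arrays a group). Grey circles are deposited values, orange diamonds quantile normalization within the tissue, and filled marks have an adjusted p under 0.05. In heart nearly all grey circles lie left of 0 (median -0.45), and the diamonds spread to both sides (median -0.13), while the marks of a gene in skeletal muscle lie close together.

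Xrcc5, the larger Ku subunit that caps broken ends for end joining, had the largest change of the 46 genes in skeletal muscle. Its signals were 380.5, 431 and 311 in Tk2+/+ and 248, 122 and 207 in Tk2-/- skeletal muscle. No Tk2-/- array reached a Tk2+/+ array, and the fold change was -0.94 (SE 0.18, adjusted p = 0.00161), or -0.98 after quantile normalization. Its partner Xrcc6, the smaller Ku subunit, gave 107, 130.4 and 95.3 in Tk2+/+ and 93.2, 82.9 and 92.6 in Tk2-/- skeletal muscle. These groups did not overlap either, but the fold change of -0.26 (SE 0.12, adjusted p = 0.151) did not pass the test. Xrcc4, which holds the ligase of end joining, gave 123, 137 and 120.4 in Tk2+/+ and 119, 88.8 and 84.2 in Tk2-/- skeletal muscle, a fold change of -0.35 (SE 0.13, adjusted p = 0.0625) that passed after quantile normalization (-0.32, SE 0.08, adjusted p = 0.0117).

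Xrcc1, the scaffold of single-strand break repair, moved the other way. Its signals were 119.9, 113 and 106 in Tk2+/+ and 150.4, 147 and 143 in Tk2-/- skeletal muscle, with every Tk2-/- array above every Tk2+/+ array. The fold change was 0.34 (SE 0.09, adjusted p = 0.00998).

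In homologous recombination, Rad51ap1, which stimulates strand exchange, gave 54.04, 50.2 and 47.4 in Tk2+/+ and 36.3, 31.2 and 30.5 in Tk2-/- skeletal muscle. The groups were far apart relative to their spread, and it fell by 0.45 on the log2 scale (SE 0.10, adjusted p = 0.00378). Rad51c was dim, at 26.3, 23.3 and 21.2 in Tk2+/+ and 16.3, 11.6 and 17.1 in Tk2-/- skeletal muscle. Its groups did not overlap, with a fold change of -0.36 (SE 0.12, adjusted p = 0.0397). Rad52, which anneals single strands, was higher at 180.4, 214 and 179 in Tk2+/+ and 304, 221 and 234 in Tk2-/- skeletal muscle. The lowest Tk2-/- array lay just above the highest Tk2+/+ array, and the fold change was 0.37 (SE 0.12, adjusted p = 0.0332). Rad54l, a motor protein that moves along DNA, gave 33.7, 23.3 and 25.9 in Tk2+/+ and 21.5, 16.2 and 16.2 in Tk2-/- skeletal muscle and missed the threshold at -0.36 (SE 0.12, adjusted p = 0.0534), while after quantile normalization it passed (-0.33, SE 0.09, adjusted p = 0.0127). The other 6 genes of the pathway did not pass the test with either scaling. These were Brca1, Brca2, Rad50, Rad51b, Rad51d and Xrcc3, with fold changes from -0.33 (Brca2) to 0.25 (Rad50).

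Among the checkpoint genes 1 of 8 passed the test in skeletal muscle, as lower, where 10.9% of all genes were lower. Chek2, the kinase downstream of Atm, gave 40.1, 45.8 and 33.4 in Tk2+/+ and 24.7, 22.7 and 21.9 in Tk2-/- skeletal muscle, without overlap, and fell by 0.51 on the log2 scale (SE 0.14, adjusted p = 0.0169). Chek1, the kinase downstream of Atr, gave 33.4, 21.8 and 20.2 in Tk2+/+ and 12.1, 17.2 and 14.7 in Tk2-/- skeletal muscle. All 3 Tk2-/- arrays were lower, but the Tk2+/+ arrays were spread widely and the fold change of -0.41 (SE 0.19, adjusted p = 0.147) did not pass. The upstream kinases gave 83.8, 70.2 and 62.8 in Tk2+/+ and 77.97, 80.3 and 80.5 in Tk2-/- skeletal muscle for Atm and 68.8, 79.1 and 66.2 in Tk2+/+ and 83, 67.8 and 64.1 in Tk2-/- skeletal muscle for Atr. For both the groups overlapped, with fold changes of 0.12 (SE 0.11, adjusted p = 0.516) and 0.00 (SE 0.12, adjusted p = 0.998). Rad17, which loads the checkpoint clamp, and the clamp subunits Rad1, Rad9a and Rad9b had fold changes from -0.25 (Rad9a) to 0.16 (Rad1), none past the threshold. Brca1 and Brca2, which join checkpoint and recombination, had fold changes of -0.21 (SE 0.10, adjusted p = 0.187) and -0.33 (SE 0.15, adjusted p = 0.131).

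Nucleotide excision repair had 2 of 6 genes higher and 0 lower with the deposited values, where 11.6% and 10.9% of all genes were. Rad23b, the partner of the damage sensor Xpc, gave 798, 924 and 669 in Tk2+/+ and 1106, 1127 and 973 in Tk2-/- skeletal muscle. The groups did not overlap and the fold change was 0.43 (SE 0.12, adjusted p = 0.017). Ercc5, the nuclease that cuts on the 3′ side of the lesion, gave 138, 171 and 146 in Tk2+/+ and 187, 206 and 184 in Tk2-/- skeletal muscle, with a fold change of 0.31 (SE 0.10, adjusted p = 0.0322). The helicase gene Ercc3, the nuclease gene Ercc4 and the transcription-coupled repair genes Ercc6 and Ercc8 had fold changes from -0.09 (Ercc8) to 0.30 (Ercc3) and did not pass.

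In mismatch repair Mlh3, a MutL homologue, gave 161, 186 and 156 in Tk2+/+ and 142, 111 and 123 in Tk2-/- skeletal muscle, with a fold change of -0.38 (SE 0.12, adjusted p = 0.0335). Its groups did not overlap. Msh3, a MutS homologue, gave 97.1, 113 and 96.4 in Tk2+/+ and 110.0, 113 and 102 in Tk2-/- skeletal muscle, with overlapping groups and a fold change of 0.08 (SE 0.11, adjusted p = 0.732). None of the 8 Fanconi core and anchor genes passed with the deposited values. After quantile normalization 1 did, Fancb, a subunit of the ligase module, at 26.4, 26.8 and 21.6 in Tk2+/+ and 32.4, 36.5 and 30.97 in Tk2-/- skeletal muscle (0.31, SE 0.09, adjusted p = 0.0246). Fancd2, the substrate of that ligase, was at -0.11 (adjusted p = 0.653). The remaining genes were Rad18 (the ligase that opens translesion synthesis), Rad21 (a cohesin subunit), Msh4 and Msh5 (meiotic crossover genes), Ercc6l, Ercc6l2 and Rad54l2. The last 3 matched the name rule and were not placed in a pathway here. All of these remaining genes had fold changes from -0.34 (Ercc6l2) to 0.31 (Rad21), and none passed with the deposited values.

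**Figure D2:**
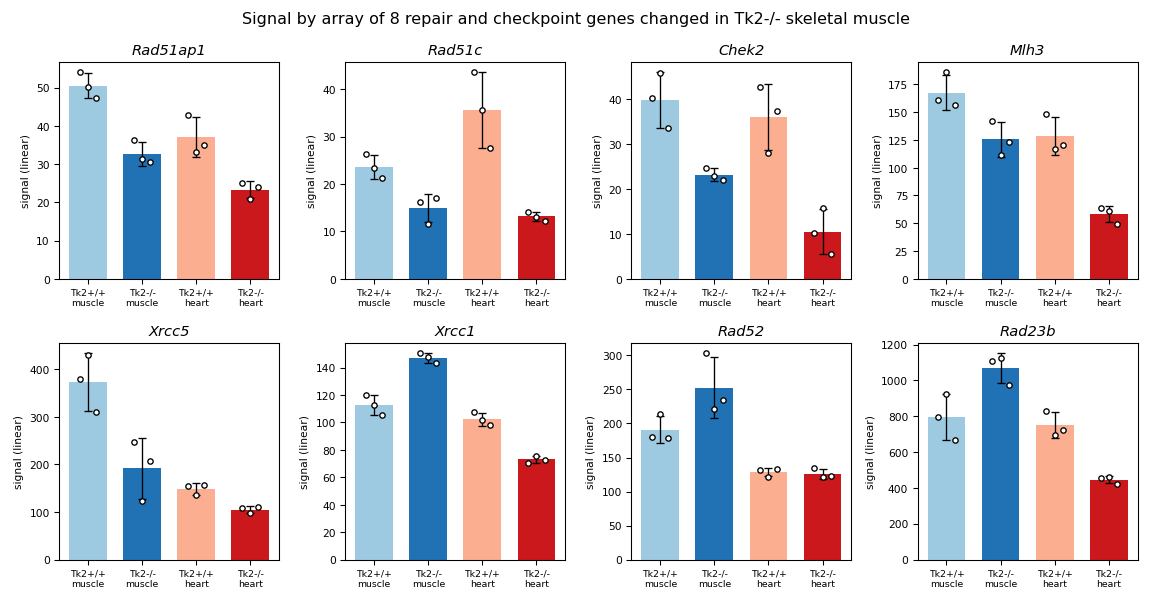
Signal (linear scale) of 8 genes on every array, in the 4 groups of 3 arrays, with bars for the mean, whiskers for the SD and points for the arrays. In skeletal muscle Rad51ap1, Rad51c, Chek2, Mlh3 and Xrcc5 were lower in Tk2-/- mice and Xrcc1, Rad52 and Rad23b higher, with no overlap between the genotypes.

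Leaving out 1 array at a time, the calls of Rad51ap1, Xrcc1 and Xrcc5 in skeletal muscle held in all 12 fits, with adjusted p up to 0.0222, 0.0425 and 0.0101. The other 6 did not. Chek2 and Mlh3 were lost without Tk2+/+ muscle array 1 or 2 or Tk2-/- muscle array 2 or 3 (adjusted p up to 0.07 and 0.161). Rad23b was lost without Tk2+/+ array 3 or Tk2-/- array 1 or 2 (up to 0.0874), and Rad52 without Tk2+/+ array 1 or 3 or Tk2-/- array 1 (up to 0.167). Rad51c was lost without Tk2+/+ array 1 or 2, Tk2-/- array 1 or 2 or Tk2-/- heart array 1 (up to 0.191), and Ercc5 without Tk2+/+ array 1 or 3 or any Tk2-/- array (up to 0.148). The part of the lower proliferation, fibroblast and satellite cell marker sums in these changes was not tested.

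In Tk2-/- heart, the deposited values gave 0 genes higher and 34 of the 46 lower. Against that, 1.99% of all genes were higher and 49% lower. After quantile normalization within the tissue 5 were higher (Ercc5, Fance, Fancl, Rad52 and Rad9b) and 17 lower, against backgrounds of 13.9% and 17.9%. Those 17, which were lower with both scalings, made 37% of the 46 genes, while 17.9% of all genes were lower with both. The median fold change of the 46 genes was -0.45 with the deposited values, against -0.28 for all genes, and -0.13 against 0.00 after quantile normalization. With median centring of each array 20 were lower and 2 higher (33% and 9.35% of all genes), and with upper-quartile scaling 7 were lower and 10 higher (14.6% and 36% of all genes), so the direction of many single genes in heart depends on the scaling. Lower with all 4 scalings were 7 genes, namely Chek1, Chek2, Rad17, Ercc6, Ercc8, Mlh3 and Rad51c. They made 15.2% of the 46, near the 13.9% of all genes that were lower with all 4.

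**Figure D3:**
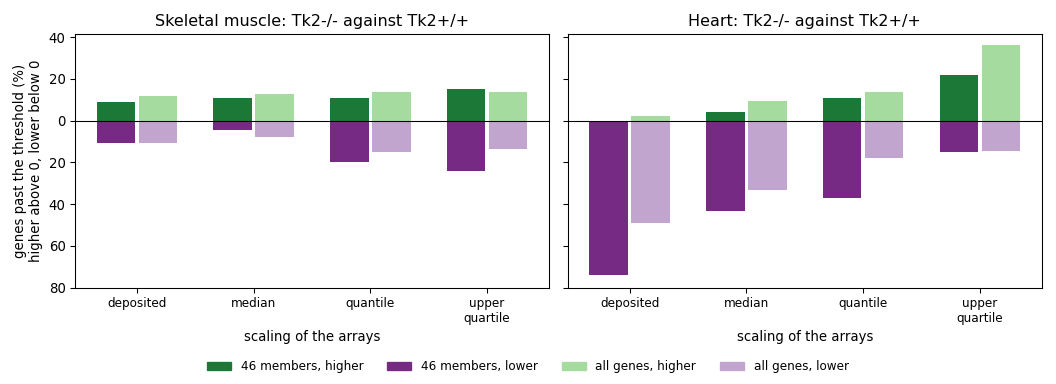
Percentage of the 46 repair and checkpoint genes (dark bars) and of all 18820 genes (pale bars) past an adjusted p of 0.05 in Tk2-/- against Tk2+/+ mice, higher above 0 and lower below 0, for the deposited values and 3 other scalings of the arrays. In heart 73.9% of the 46 genes were lower with the deposited values and 37% after quantile normalization, against 49% and 17.9% of all genes, whereas upper-quartile scaling gave 15.2% lower against 14.6%.

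Chek1, Chek2 and the clamp loader Rad17 were among the 7. Chek1 gave 50.3, 34.9 and 17.9 in Tk2+/+ and 10.8, 12.8 and 7.48 in Tk2-/- heart. The Tk2+/+ arrays varied widely, yet all lay above the Tk2-/- arrays, with a fold change of -0.89 (SE 0.19, adjusted p = 0.000951), or -0.78 (SE 0.16, adjusted p = 0.00241) after quantile normalization. Chek2 gave 42.7, 27.98 and 37.3 in Tk2+/+ and 10.1, 15.7 and 5.58 in Tk2-/- heart, a fold change of -0.98 (SE 0.14, adjusted p = 3.44e-05), or -0.86 after quantile normalization. Rad17 gave 137, 129.8 and 128 in Tk2+/+ and 60.3, 67.6 and 47.8 in Tk2-/- heart. Its Tk2+/+ arrays were tight and far above the nearest Tk2-/- array, with a fold change of -0.99 (SE 0.12, adjusted p = 1.01e-05), or -0.48 (SE 0.09, adjusted p = 0.00197) after quantile normalization.

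For the upstream kinases the result depended on the scaling. Atm gave 91.2, 86.7 and 91.3 in Tk2+/+ and 70.01, 66.1 and 53.8 in Tk2-/- heart, and Atr gave 113, 83.5 and 92.4 in Tk2+/+ and 57.8, 59.3 and 59.9 in Tk2-/- heart. The genotypes did not overlap in the deposited values of either, with fold changes of -0.42 (SE 0.11, adjusted p = 0.00344) and -0.58 (SE 0.12, adjusted p = 0.000521). After quantile normalization Atm was at 0.08 (SE 0.08, adjusted p = 0.481), with its sign turned, and Atr at -0.07 (SE 0.09, adjusted p = 0.582). The clamp subunit Rad9a gave 66.6, 47.03 and 53.2 in Tk2+/+ and 33.9, 34.4 and 30.03 in Tk2-/- heart, without overlap, and was lower with both scalings (-0.55 and -0.24). Rad1 was lower with the deposited values alone (-0.39), and Rad9b, a paralogue of Rad9a, was at 0.13 and passed as higher after quantile normalization (0.31, SE 0.09, adjusted p = 0.0183).

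In homologous recombination 5 of 10 genes were lower in heart with both scalings, beside 17.9% of all genes. Rad51c gave 43.5, 35.6 and 27.5 in Tk2+/+ and 14.2, 13.1 and 12.2 in Tk2-/- heart, the largest change of the pathway at -0.81 (SE 0.12, adjusted p = 3.66e-05), or -0.69 (SE 0.09, adjusted p = 0.000116) after quantile normalization. Brca2, a mediator of strand exchange, gave 49.5, 27.4 and 28.1 in Tk2+/+ and 19.5, 16.04 and 16.3 in Tk2-/- heart, without overlap, and a fold change of -0.59 (SE 0.15, adjusted p = 0.00279), or -0.45 after quantile normalization. Brca1 was dim at 18.6, 19.2 and 14.7 in Tk2+/+ and 11.4, 11.6 and 9.67 in Tk2-/- heart, with a fold change of -0.32 (SE 0.10, adjusted p = 0.0168) and -0.27 after quantile normalization, but 0.00 with upper-quartile scaling. Its call was lost without Tk2+/+ heart array 1 or 2 or Tk2-/- heart array 3 (adjusted p up to 0.0611). Rad51ap1 gave 42.9, 33.2 and 35.03 in Tk2+/+ and 25.03, 20.96 and 24.1 in Tk2-/- heart, with fold changes of -0.43 and -0.24. Rad54l, at 23.4, 23.1 and 14.5 in Tk2+/+ and 14.1, 14.3 and 10.5 in Tk2-/- heart, was lower by fold changes of -0.32 and -0.26, a call that held in 4 of the 12 fits that left out 1 array (adjusted p up to 0.166), being kept only without Tk2+/+ muscle array 1 or 2, Tk2-/- muscle array 1 or Tk2+/+ heart array 3. Rad52 gave 131, 121 and 133 in Tk2+/+ and 134, 122 and 122 in Tk2-/- heart. Its deposited signals overlapped, with a fold change of -0.02 (SE 0.12, adjusted p = 0.891), and after quantile normalization it was the most increased of the 46 genes in heart at 0.59 (SE 0.10, adjusted p = 0.000699). Rad50, of the complex that senses broken ends, was lower with the deposited values alone (-0.49 and 0.06). Rad51b, Rad51d and Xrcc3 passed with neither scaling.

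All 6 genes of nucleotide excision repair were lower in heart with the deposited values, from -0.87 (Ercc6) to -0.30 (Ercc5). On that scale 49% of all genes were lower. After quantile normalization 2 of 6 stayed lower, beside 17.9% of all genes. These were Ercc6 and Ercc8, which recruit repair to stalled RNA polymerase. Ercc6 gave 98.1, 89.7 and 95.6 in Tk2+/+ and 43.7, 48.5 and 41.8 in Tk2-/- heart. The groups were far apart and tight, with a fold change of -0.87 (SE 0.09, adjusted p = 3.62e-06), or -0.43 (SE 0.08, adjusted p = 0.00128) after quantile normalization. Ercc8 gave 38.9, 31.6 and 33.4 in Tk2+/+ and 17.1, 20.7 and 11.7 in Tk2-/- heart, with fold changes of -0.65 (SE 0.12, adjusted p = 0.000311) and -0.51. Ercc3, Ercc4 and Rad23b were at 0.01, -0.01 and -0.05 after quantile normalization, and Ercc5 turned from -0.30 to 0.34 (SE 0.09, adjusted p = 0.0157).

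Mlh3 gave 148, 117 and 121 in Tk2+/+ and 63.3, 61.3 and 49.6 in Tk2-/- heart, with a fold change of -0.96 (SE 0.12, adjusted p = 1.1e-05), or -0.44 (SE 0.08, adjusted p = 0.00148) after quantile normalization, whereas Msh3 was lower with the deposited values alone (-0.49 and -0.05). Among the end joining genes Xrcc6 gave 103, 89.1 and 76 in Tk2+/+ and 45.6, 48.9 and 42.5 in Tk2-/- heart and was lower with both scalings (-0.77, SE 0.12, adjusted p = 6.5e-05, and -0.33, SE 0.09, adjusted p = 0.0116). Its partner Xrcc5 gave 155, 135 and 157 in Tk2+/+ and 108, 97.02 and 110.4 in Tk2-/- heart and passed with neither (-0.45, SE 0.18, adjusted p = 0.0551, and 0.15, SE 0.17, adjusted p = 0.552). Xrcc1 and Xrcc4 were lower with the deposited values at -0.41 and -0.46, and were at 0.13 and 0.10 after quantile normalization.

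In the Fanconi pathway Fancg, a core subunit, Fancm, the anchor of the core complex on DNA, and Fancd2 were lower with both scalings. Fancg gave 40.9, 35.5 and 31.7 in Tk2+/+ and 19.6, 21.3 and 16.8 in Tk2-/- heart and a fold change of -0.56 (SE 0.10, adjusted p = 0.000189), or -0.41 after quantile normalization. Fancm gave 47.95, 39.3 and 32.7 in Tk2+/+ and 23.7, 24.2 and 22.8 in Tk2-/- heart, with -0.49 and -0.30. Fancd2, one of the dimmer genes, gave 23.6, 16.8 and 16.3 in Tk2+/+ and 10.5, 11.6 and 5.23 in Tk2-/- heart, with -0.48 and -0.44, and in all 3 the genotypes were apart. Fancl, the ligase itself, gave 122, 94.3 and 92.8 in Tk2+/+ and 107, 81.5 and 87.4 in Tk2-/- heart, with overlapping groups and -0.14 (SE 0.13, adjusted p = 0.447), and passed as higher after quantile normalization (0.42), as did Fance (-0.17 and 0.24). Fancb, Fancc and Fancf were lower with the deposited values alone, and Fanca with neither. Of the others, Ercc6l2 gave 89.6, 79.6 and 75.5 in Tk2+/+ and 45.1, 49.9 and 30.1 in Tk2-/- heart and was lower with both scalings (-0.77, SE 0.13, adjusted p = 0.000151, and -0.38, SE 0.11, adjusted p = 0.018), Rad18, Rad21 and Rad54l2 were lower with the deposited values alone (-0.48, -0.80 and -0.58), and Msh4, Msh5 and Ercc6l passed with neither.

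**Figure D4:**
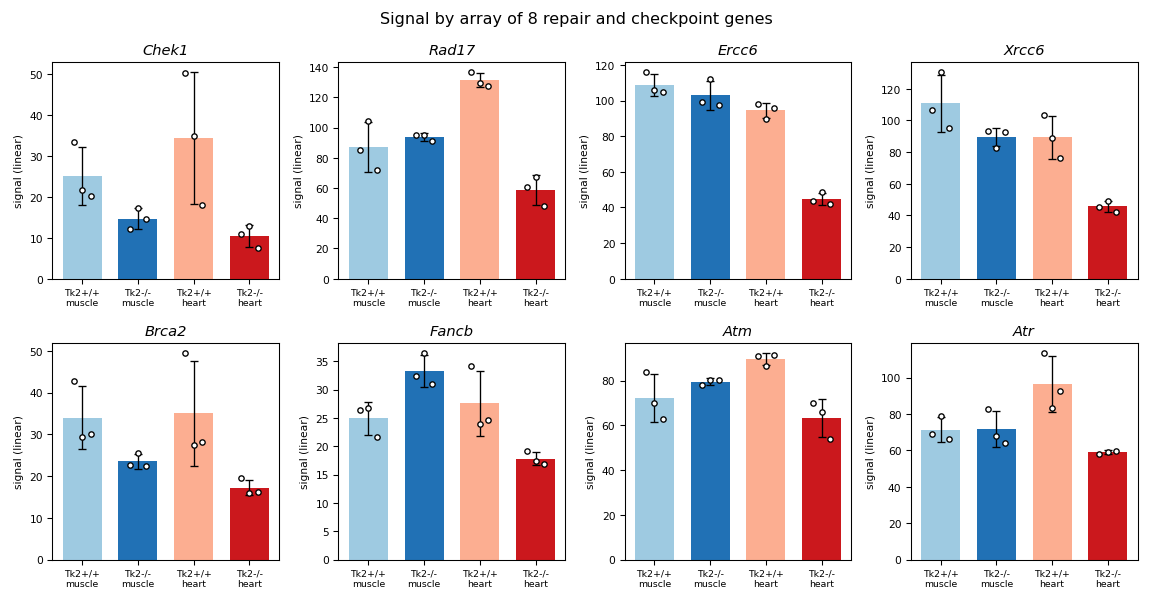
Signal (linear scale) of 8 genes on every array, in the 4 groups of 3 arrays, with bars for the mean, whiskers for the SD and points for the arrays. Chek1, Rad17, Ercc6, Xrcc6 and Brca2 were lower in Tk2-/- heart with both scalings, while the deposited decrease of Atm and Atr in heart did not pass after quantile normalization.

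Leaving out 1 array at a time left 29 to 35 genes lower in heart with the deposited values, and 28 of the 34 calls held in all 12 fits. Beside Brca1 and Rad54l, lost calls were Ercc5 without Tk2-/- heart array 2 or 3, Fancb without Tk2+/+ heart array 1, and Fancc and Fancf without Tk2-/- heart array 3 (adjusted p up to 0.0696). With the deposited values the proliferation marker sum was lower in Tk2-/- heart without overlap between arrays, as were the fibroblast, leucocyte and endothelial sums. After quantile normalization 9 of 9 proliferation, 5 of 7 fibroblast, 6 of 9 leucocyte and 4 of 6 endothelial markers were lower. Their median fold changes were -1.75, -1.06, -0.62 and -0.26. Of the fibroblast markers Pdgfra was then higher (0.28, adjusted p = 0.0367). The part of these markers in the lower signals of the repair genes was not tested.

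Lower in both tissues with both scalings were 4 genes, Chek2, Mlh3, Rad51ap1 and Rad51c, or 8.7% of the 46, beside 6.85% of all genes. Ercc5 and Rad52 were higher in both tissues after quantile normalization, and 0 genes were with the deposited values. On the quantile scale 13.8% of all genes were higher in skeletal muscle and 13.9% in heart. The share of all genes higher in both was not computed, so these 2 genes are no result about the set. The test of the difference between the genotype effects (skeletal muscle minus heart) passed for 20 genes, all with the higher value in skeletal muscle, and for 0 the other way, with the deposited values (background 41.3% and 1.39%). After quantile normalization it passed for 3 genes higher in skeletal muscle (Ercc6, Fancb and Rad17) and 2 lower (Xrcc4 and Xrcc5), beside 6% and 4.54% of all genes. With median centring it passed for 10 genes, all with the higher value in skeletal muscle, but with upper-quartile scaling for 3 higher and 8 lower in skeletal muscle (6.08% and 15% of all genes), so the split by direction depends on the scaling. Ercc6, Fancb and Rad17 passed with the deposited values and after quantile normalization, as did 5.99% of all genes.

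Rad17 had the largest difference of the 3, at 1.09 (SE 0.17, adjusted p = 0.000251) and 0.63 (SE 0.13, adjusted p = 0.0107) after quantile normalization, and was the one gene to pass with all 4 scalings. Its signals in skeletal muscle were 85.2, 104 and 71.7 in Tk2+/+ and 95.2, 95.2 and 90.8 in Tk2-/- skeletal muscle and overlapped. Ercc6, which gave 116, 106 and 105 in Tk2+/+ and 99.2, 112 and 97.3 in Tk2-/- skeletal muscle, had a difference of 0.79 (SE 0.13, adjusted p = 0.000323) and 0.38 (SE 0.11, adjusted p = 0.0444). Fancb, whose signals in skeletal muscle are given above, had 34.1, 23.9 and 24.7 in Tk2+/+ and 19.2, 17.4 and 16.9 in Tk2-/- heart, and a difference of 0.63 (SE 0.15, adjusted p = 0.00332) and 0.55 (SE 0.13, adjusted p = 0.021). With upper-quartile scaling Ercc6 and Fancb no longer passed (0.24 and 0.21). Fancb lies on the X chromosome. Xist, the RNA of the inactive X, was above a signal of 100 on 1 of 3 Tk2+/+ and 2 of 3 Tk2-/- muscle arrays. In heart it was above 100 on 2 of 3 Tk2+/+ and 3 of 3 Tk2-/- arrays. The part of this difference in the Fancb values was not tested. As labelled, the Xist counts differ between the tissues of each genotype, so the tissues did not all come from the same 3 mice. The difference for Xrcc5 was -0.50 (SE 0.26, adjusted p = 0.146) with the deposited values and -1.13 (SE 0.25, adjusted p = 0.0128) after quantile normalization.

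In Tk2+/+ mice the tissues themselves differed. With the deposited values 13 of the 46 genes were higher in skeletal muscle and 4 in heart (background 30.6% and 18.4%), and after quantile normalization over all 12 arrays 5 and 10 (19.3% and 21.9%). Higher in skeletal muscle with both were Xrcc5, Ercc6l2, Rad52, Mlh3 and Msh3, and higher in heart with both were Rad17, Rad51c, Atr and Rad21. Xrcc5 stood apart, with 380.5, 431 and 311 in skeletal muscle against 155, 135 and 157 in heart, a difference of 1.23 (SE 0.18, adjusted p = 7.67e-05) that passed with all 4 scalings. Every Tk2+/+ muscle array was above every Tk2+/+ heart array. Its partner Xrcc6 differed by 0.27 (SE 0.12, adjusted p = 0.0773), which did not pass. In Tk2-/- muscle the Xrcc5 signal lay between the levels of the Tk2+/+ tissues on 2 of 3 arrays.

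Ercc6l2 and Rad52 differed by 0.60 (SE 0.13, adjusted p = 0.00199) and 0.51 (SE 0.12, adjusted p = 0.00236), and Mlh3 and Msh3 by 0.35 (SE 0.12, adjusted p = 0.0264) and 0.32 (SE 0.11, adjusted p = 0.0268), all higher in skeletal muscle. Median centring left none of these 4 past the threshold, with differences of 0.28, 0.18, 0.01 and 0.00. Rad17 was higher in heart, with a difference of -0.53 (SE 0.12, adjusted p = 0.00274), and its deposited signals, 85.2, 104 and 71.7 in skeletal muscle against 137, 129.8 and 128 in heart, did not overlap. Rad51c, Atr and Rad21 had differences of -0.37, -0.36 and -0.35, and all 4 of these genes passed with all 4 scalings. Without 1 of the arrays of Tk2+/+ mice the calls of Atr (muscle 1 or 3, heart 1), Rad51c (muscle 3, heart 1), Rad21 (muscle 1 or 3, heart 1 or 3), Mlh3 (muscle 2, heart 2 or 3) and Msh3 (muscle 2, any heart array) were lost, with adjusted p up to 0.0979, 0.0937, 0.118, 0.0957 and 0.0942. Rad51c was thus higher in heart than in skeletal muscle of Tk2+/+ mice, while the Tk2-/- arrays of both tissues lay close together, at 14.2, 13.1 and 12.2 in heart and 16.3, 11.6 and 17.1 in skeletal muscle.

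Around these 46 genes, 83 other genes of the same pathways were measured, chosen from textbook membership with earlier results of these data known. In Tk2-/- skeletal muscle 6 rose and 18 fell with the deposited values, where 11.6% and 10.9% of all genes did, and 10 and 19 after quantile normalization (13.8% and 14.8% of all genes). Their median was -0.15 with the deposited values. In heart 0 rose and 68 fell with the deposited values (1.99% and 49% of all genes), and 5 rose and 30 fell after quantile normalization (13.9% and 17.9% of all genes). With the deposited values the largest decrease in skeletal muscle was of Neil3, a glycosylase of replicating cells, with a mean signal of 36.4 ± 10.4 (SD, n = 3) in Tk2+/+ and 9.89 ± 4.46 in Tk2-/- skeletal muscle (-1.01, SE 0.15, adjusted p = 0.000167), and 30.9 ± 6.61 against 4.81 ± 0.84 in heart (-1.16, SE 0.15, adjusted p = 1.35e-05, and -1.07 after quantile normalization). Rpa3, a subunit of the complex that coats single-stranded DNA, fell from 186.7 ± 35.0 to 85.6 ± 12.9 in skeletal muscle (-0.99, SE 0.17, adjusted p = 0.000782) and was lower with both scalings in heart (-1.35 and -0.74). Xpc, the damage sensor that Rad23b accompanies, rose in skeletal muscle from 75.9 ± 12.1 to 129.8 ± 4.14 (0.67, SE 0.10, adjusted p = 0.000255), and in heart was at 0.06 with the deposited values and 0.57 (SE 0.10, adjusted p = 0.00122) after quantile normalization. In the list of nucleotide excision repair that holds Xpc, 3 of 12 genes rose and 1 fell in skeletal muscle with the deposited values. The gene that fell was Ccnh (-0.51, SE 0.14, adjusted p = 0.0171, or -0.55 after quantile normalization). Trp53bp1, which steers breaks to end joining, fell in skeletal muscle (-0.46, or -0.40 after quantile normalization) as it did in heart (-1.03, or -0.58). In the checkpoint list beside the 8 genes above, 1 of 14 rose and 3 fell in skeletal muscle with the deposited values, and after quantile normalization 0 rose and 9 fell in heart, to be read beside the same shares of all genes. Among the 9 was Hus1, the third subunit of the clamp (-0.98 and -0.36).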

How the data were processed

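Gene expression was measured on 12 Affymetrix Mouse Gene 1.1 ST arrays. The deposited table holds 1 linear intensity per probe set and array. Per the submitters' processing notes, the authors used Affymetrix Expression Console and PLIER, without versions. In the methods a normalization is mentioned without its procedure, followed by a t-test, and array medians and upper quartiles differ. Of 35556 probe sets, 21218 carried 1 symbol, 1881 several and 12457 none. Of the first kind, 21185 were found in a RefSeq gene table (GRCm38.p6) and 0 symbols changed. The brightest probe set per symbol gave 18820 genes.

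An offset of 16 was added before log2. All 4 group means entered 1 limma fit (version 3.58.1, R 4.3.3) with 8 residual degrees of freedom, and 2-sided p-values received the Benjamini-Hochberg adjustment across the genes, with a threshold of 0.05. Quantile normalization was run within each tissue, or over all 12 arrays for the comparison of Tk2+/+ tissues. The fit was tested on simulated data. Genes given with values on every array were mainly, per tissue, the 8 with the largest change past the threshold with both scalings, those whose genotype effect differed between tissues with both, those that differed between Tk2+/+ tissues with both (up to 5 each way), and the kinases with Brca1 and Brca2. Other values were added after they were seen. Replicates within a group correlated above 0.98 in every pair and no pair was identical. The members and the lists were chosen with earlier results of these data known. Promoter windows are from RefSeq. Proteins were not used here. Alternatives were median centring, quantile normalization, upper-quartile scaling, an offset of 1, leaving out dim genes (mean below 32 in all groups), the mean of probe sets, each tissue alone, a trended robust prior, array weights, a replicate block, the methods' t-test and leaving out each array. Figures used Python 3.11.15, matplotlib 3.10.9 and NumPy 2.4.6.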

Additional observations from a re-analysis of the deposited data

Results flagged for a closer look

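The genotype effect differed between skeletal muscle and heart by limma's test for 20 of the 46 genes with the deposited values, all with the higher value in skeletal muscle on that scale, where the median difference of all genes was itself 0.30 on the log2 scale. The differences were 1.15 for Rad23b, 1.11 for Rad21, 1.09 for Rad17, 0.98 for Ercc3, 0.79 for Ercc6, 0.75 for Xrcc1, 0.74 for Rad50, 0.65 for Rad54l2, 0.63 for Fancb and 0.61 for Ercc5. They were 0.59 for Mlh3, 0.58 for Atr, 0.57 for Msh3, 0.56 for Ercc8, 0.55 for Rad1, 0.54 for Atm, 0.53 for Ercc4, 0.51 for Xrcc6, 0.48 for Rad18 and 0.45 for Rad51c. After quantile normalization within each tissue, Ercc6, Fancb and Rad17 still passed. With upper-quartile scaling the test passed for 3 genes with the higher value in skeletal muscle and 8 with the lower, so the split by direction depends on the scaling. The differences of Rad18, Rad51c and Xrcc6 passed in 4, 3 and 8 of the 12 fits that left out 1 array.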

How the results depend on the processing

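Over 37 values of named genes and 26 alternatives, 801 values kept their direction and side of the threshold, 130 no longer passed, 4 newly passed and 4 reversed. The reversed ones were Atm in heart (0.084 with quantile normalization, with and without the replicate block, and 0.15 with upper-quartile scaling) and Brca1 in heart (0.0017 with upper-quartile scaling). Genes lower in skeletal muscle numbered 2 with median centring, 9 with quantile normalization, 11 with upper-quartile scaling, 3 with an offset of 1, 11 with array weights and 8 with the replicate block and quantile normalization. Those higher numbered 7 with upper-quartile scaling, 1 with an offset of 1 and 2 with each tissue alone. In heart, genes higher numbered 2, 5 and 10 with median centring, quantile and upper-quartile scaling, 1 with array weights (which gave Tk2-/- heart array 1 a weight of 9.52, the others 0.449 to 1.56) and 5 with the block and quantile normalization, and genes lower 20, 17, 7 and, with the block and quantile normalization, 16. Genes whose effect differed between tissues numbered 10, 5, 11 (3 higher and 8 lower in skeletal muscle) and 3 in that order. The methods' t-test with adjustment called 0 genes in skeletal muscle either way and 6 between Tk2+/+ tissues. At the methods' fold, taken on signal + 16, and unadjusted p it called 0 in each tissue and 1 between tissues. With the fold of mean signals without offset, an alternative chosen after seeing the data, it called 0 either way in skeletal muscle, 0 higher and 9 lower in heart and 1 between tissues. At an unadjusted p under 0.05, limma called 8 genes higher with 15 lower in skeletal muscle, and 0 with 36 in heart, where the t-test called 5 with 11, and 0 with 35. Leaving out 1 array gave 1 to 6 genes higher (lowest without Tk2+/+ muscle array 3, highest without 2) and 2 to 8 lower in skeletal muscle (lowest without Tk2+/+ muscle array 1, highest without Tk2+/+ heart array 3), 0 to 0 higher and 29 to 35 lower in heart, 17 to 23 with a different effect and 11 to 18 between Tk2+/+ tissues. Same-numbered arrays did not deviate together (r from -0.193 to 0.128), which cannot exclude that some came from 1 mouse, since tissues of a mouse need not deviate together. Xist was apart between muscle and heart for Tk2+/+ number 1 (1.45 and 1500) and Tk2-/- number 2 (1.6 and 982). As labelled, those numbers do not join tissues of 1 mouse. The samples were not paired in the main fit, and the replicate block changed none of the 37 calls. The causes were not tested. The number of arrays limits precision, and 2 of the 46 genes lay below a signal of 16 in all groups, where offset and background weigh most.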
